A study of Mus musculus with 6 samples.

Results

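The cell cycle and proliferation genes of LN endothelial cells are described here from 6 Affymetrix GeneChip mouse genome arrays. The list holds 37 genes, and a member was taken as every probe set whose symbol in the platform table is that of the gene. Of the 37 members, 36 were measured by 88 probe sets of their own, out of 18193 genes and 45037 probe sets that are not controls, and Ccnb1 was not analysed here. Each gene is given at the probe set that was brightest on average over the 6 arrays. For part of the members, other probe sets or the average over the probe sets of the gene are also given where they differ. The double-positive group holds 3 arrays (replicates 1 to 3) and the CD31+ group holds 3 arrays (replicates 1 to 3). Both came from C57BL/6 mice aged 6 weeks for which the labels give no treatment, and whose skin-draining and mesenteric LN were pooled, depleted of CD45+ cells with magnetic beads and sorted by gp38 and CD31. The titles of the double-positive arrays also carry the word BEC and those of the CD31+ arrays the word LEC, although the study sorted lymphatic endothelial cells (LEC) as gp38+ CD31+ and blood endothelial cells (BEC) as gp38- CD31+. The groups are therefore called by their gate word, and a reading by the cell type word would turn the sign of every difference below.

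The cell division cycle is driven by cyclin-dependent kinases (CDK) and their cyclins. Cyclin D with Cdk4 or Cdk6, followed by cyclin E with Cdk2, phosphorylates the retinoblastoma proteins and frees E2F factors, which switch on the genes of DNA synthesis, while CDK inhibitors hold these kinases back. Cyclin A and cyclin B with Cdk1 then carry the cell into mitosis. Endothelium of resting adult vessels divides rarely, whereas the vessels of a LN expand when the node is challenged.

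Many genes of mitosis and DNA synthesis share short promoter motifs, so the upstream sequences of some of the members are shown first. The motifs were CHR (TTTGAA or TTTAAA, the cell cycle genes homology region), the E2F motif (TTCCCGC or TTGGCGC) and the CCAAT box (CCAAT), each searched on both strands from 250 bases before to 50 bases after the RefSeq start in GRCm38.p6. Of the 37 members, 30 had such a window. The 200 bases before the start are printed 5′ to 3′ on the strand of the gene, with matches of any of the 3 motifs in capitals.
Mki67 (chr7:135716380-135716579, minus strand): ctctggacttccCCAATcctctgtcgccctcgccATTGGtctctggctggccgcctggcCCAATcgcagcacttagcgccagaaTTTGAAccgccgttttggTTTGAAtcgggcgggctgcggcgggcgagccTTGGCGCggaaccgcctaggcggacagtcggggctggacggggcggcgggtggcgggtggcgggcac
Top2a (chr11:99024190-99024389, minus strand): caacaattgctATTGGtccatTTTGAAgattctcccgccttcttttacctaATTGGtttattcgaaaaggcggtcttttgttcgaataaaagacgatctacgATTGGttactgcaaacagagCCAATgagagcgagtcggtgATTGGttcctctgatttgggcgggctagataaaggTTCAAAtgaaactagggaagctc
Ccnb2 (chr9:70421555-70421754, minus strand): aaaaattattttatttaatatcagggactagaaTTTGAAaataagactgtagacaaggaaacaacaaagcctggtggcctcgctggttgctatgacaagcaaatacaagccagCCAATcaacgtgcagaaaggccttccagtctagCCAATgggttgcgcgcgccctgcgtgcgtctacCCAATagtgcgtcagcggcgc
Cdk1 (chr10:69352913-69353112, minus strand): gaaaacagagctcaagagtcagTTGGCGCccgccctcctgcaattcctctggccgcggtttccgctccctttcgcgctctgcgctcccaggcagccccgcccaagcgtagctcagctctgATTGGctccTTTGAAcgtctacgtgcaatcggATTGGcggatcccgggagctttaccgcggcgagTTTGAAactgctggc
Mcm6 (chr1:128359706-128359905, minus strand): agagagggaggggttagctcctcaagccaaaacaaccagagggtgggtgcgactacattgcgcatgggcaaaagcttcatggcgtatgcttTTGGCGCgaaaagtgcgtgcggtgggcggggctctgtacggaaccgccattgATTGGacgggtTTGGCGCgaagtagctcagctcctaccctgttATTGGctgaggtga
Rrm1 (chr7:102441495-102441694, plus strand): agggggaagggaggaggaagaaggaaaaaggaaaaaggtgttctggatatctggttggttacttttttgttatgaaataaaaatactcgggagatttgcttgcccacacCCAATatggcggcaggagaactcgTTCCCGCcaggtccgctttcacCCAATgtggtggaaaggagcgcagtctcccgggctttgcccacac
Cdk6 (chr5:3343693-3343892, plus strand): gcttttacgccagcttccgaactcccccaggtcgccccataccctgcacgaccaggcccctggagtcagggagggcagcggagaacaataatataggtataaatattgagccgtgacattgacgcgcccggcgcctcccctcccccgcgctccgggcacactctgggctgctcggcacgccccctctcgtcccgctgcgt
The first 4 are genes of mitosis and each holds CHR and CCAAT letters, and Mki67 and Cdk1 hold E2F letters too. Mcm6 and Rrm1 are genes of DNA synthesis with E2F and CCAAT letters, and the 200 bases of Cdk6 hold none of the motifs. Over the whole windows, CHR letters were found in 16 of 30 members (53.3%) and in 30.6% of all 27025 genes with a window. By role they were found in 10 of 11 mitosis members (90.9%) and in 3 of 9 DNA replication members (33.3%). E2F letters were found in 10 of 30 members (33.3%), against 7.79% of all genes. By role they were found in 5 of 9 DNA replication members (55.6%) and in 3 of 11 mitosis members (27.3%). The CCAAT box was found in 22 of 30 members (73.3%), against 41.1% of all genes. E2F and CCAAT letters overlapped in the windows of Ccnb1 and Mcm7. A match describes the letters of a window and was not tested as a binding site.

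The values are relative log2 RNA abundances with a common floor at 2.39, and a value within 0.1 of that floor shows no usable signal. RNA of 20 ng per sample went through amplification before labelling, and the number of arrays limits the precision of every value. In the check of the gates, Pdpn, which encodes gp38, averaged 7.64 in double-positive arrays and 3.58 in CD31+ arrays, whereas Pecam1, the gene of CD31, was at or close to the floor in both (2.41 in double-positive and 2.48 in CD31+ arrays). Cdh5, the cadherin of endothelial junctions, averaged 5.62 in double-positive and 5.70 in CD31+ arrays. All 9 lymphatic markers had a higher mean in double-positive arrays (6 called at 5% FDR, limma), and all 7 measured blood vessel markers had a lower one (5 called). The 11 measured hematopoietic markers averaged 2.58 to 2.61 per array in double-positive arrays and 2.63 to 2.77 in CD31+ arrays, with 5 of them (among them Cd3e, Cd3g and Cd79a) within 0.1 of the floor on all 6. Ptprc, which encodes CD45, averaged 2.67 in double-positive arrays and 3.72 in CD31+ arrays. The 9 markers of reticular cells and pericytes averaged 3.71 to 4.13 per array in double-positive arrays and 4.53 to 5.97 in CD31+ arrays, and 5 of the 9 had all double-positive arrays below all CD31+ arrays. Their part in the differences below was not tested. The median of bright probe sets was 7.07 to 7.31 in double-positive arrays and 6.16 to 6.66 in CD31+ arrays, lowest in CD31+ replicate 3, whereas the median of 18 hybridization controls was 10.0 to 11.0 in double-positive arrays and 11.6 to 12.1 in CD31+ arrays. A B1 repeat control was bright in both arrays numbered 2 (12.8 in double-positive and 12.3 in CD31+) and lay at 7.47 to 8.11 on the other 4. The 3′ minus 5′ signal of the actin control was 7.58 to 7.83 in double-positive arrays. In CD31+ arrays it was 6.07 to 7.38, lowest in CD31+ replicate 3. The part of these array controls in the differences below was not tested.

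Few of the cell cycle genes passed the test of a difference between the groups. At 5% FDR over all probe sets (limma), 1 of the 36 measured members was higher in double-positive arrays (0.879% of all genes were) and 0 were lower (0.176% of all genes). The member called was Cdk6. At an unadjusted p under 0.05, 6 members were higher (12.5% of all genes) and 1 was lower (2.12% of all genes), and with the pairs as a block 9 were higher (12.6%) and 0 lower (2.06%) by that measure. The median difference, double-positive minus CD31+, was 0.20 over the 36 members and 0.00 over all genes. All double-positive arrays lay above all CD31+ arrays for 6 members (Top2a, Ccnb2, Mcm3, Rrm1, Rrm2 and Cdk6) and below them for 1 (Ccne1), against 16.9% and 3.42% of all genes. With 3 arrays a group an exact permutation test of a single gene cannot go below a two-sided p of 0.1. In such bulk samples fewer cells that express a gene and less RNA per cell cannot be told apart.

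**Figure D1:**
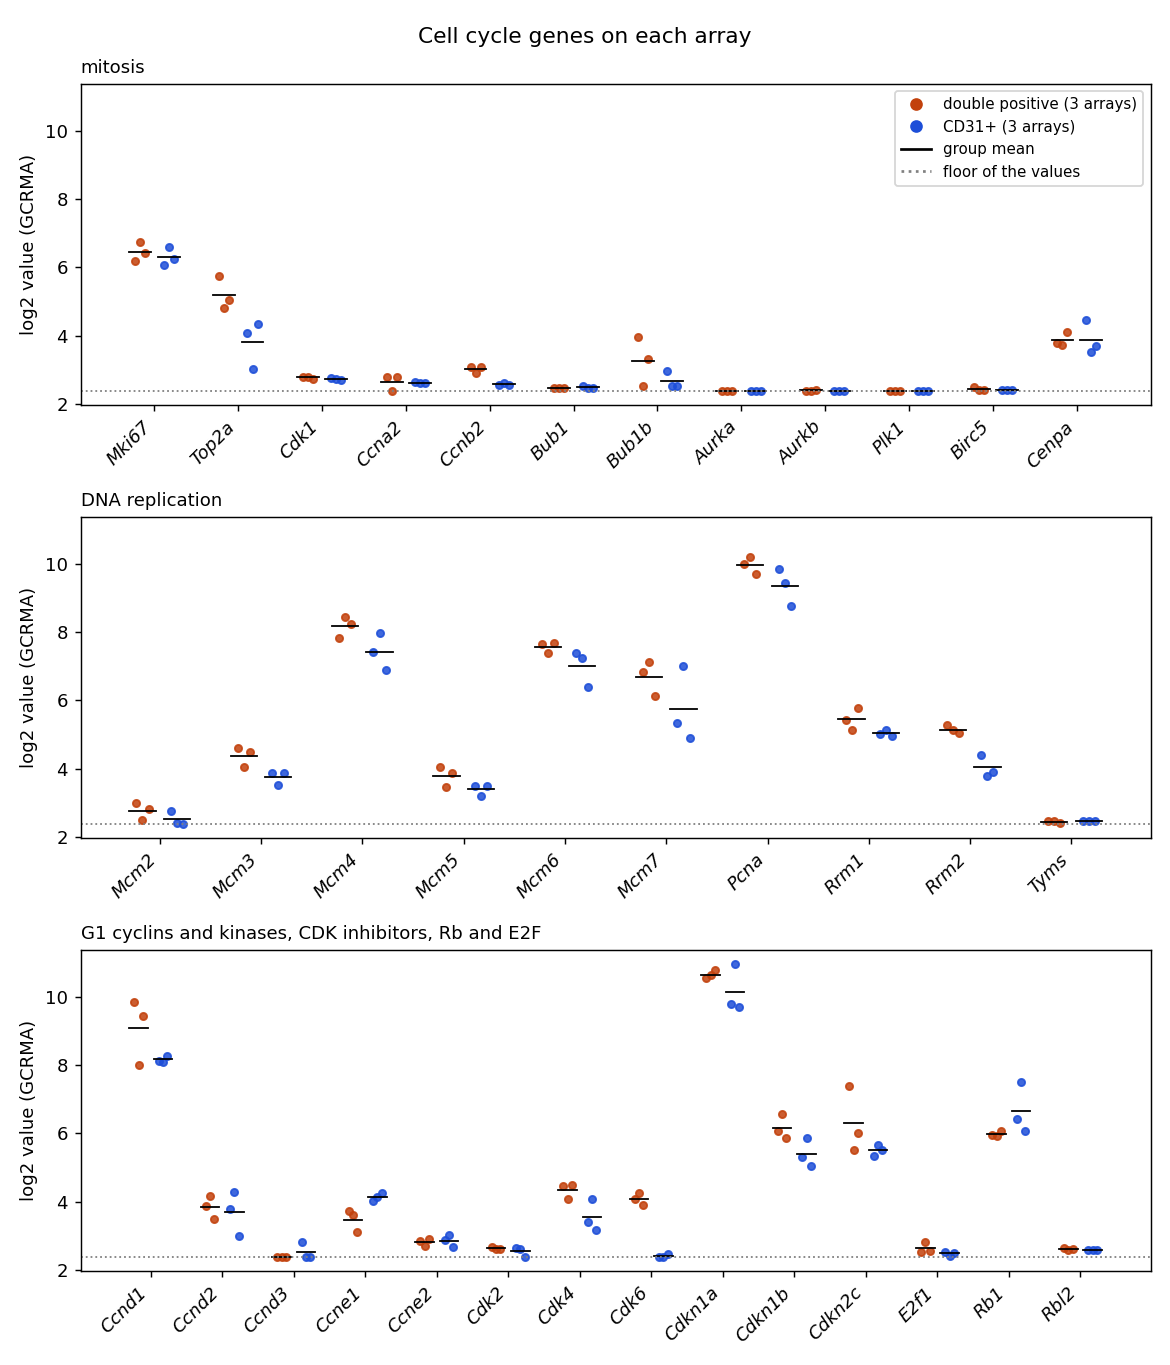
Log2 value of each measured member (horizontal axis) on each array, with double-positive arrays in orange left of CD31+ arrays in blue, group means as black lines and the floor of 2.39 dotted. Of the 12 mitosis genes 4 lie within 0.1 of the floor on all arrays, Cdk6 stands apart at 3.90 to 4.27 in double-positive arrays against 2.39 to 2.48 in CD31+ arrays, and Rb1 and Ccne1 have the lowest differences (-0.68 and -0.66).

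Mitosis genes gave little signal in either group. Aurka, Aurkb and Plk1, which encode mitotic kinases, and Birc5, which encodes the survivin subunit of the chromosomal passenger complex, were within 0.1 of the floor on all 6 arrays. Together with Tyms this made 5 of 36 members (13.9%), whereas 26.1% of all genes lay there. Cdk1, the kinase of mitotic entry, read 2.80, 2.80 and 2.75 in double-positive replicates 1 to 3, and 2.77, 2.74 and 2.72 in CD31+ replicates 1 to 3. Its difference was 0.04 (95% interval -0.02 to 0.10). Ccna2, which encodes cyclin A, read 2.80, 2.39 and 2.79 in double-positive arrays and 2.64, 2.62 and 2.62 in CD31+ arrays. Bub1, a kinase of the spindle checkpoint, averaged 2.48 in double-positive and 2.50 in CD31+ arrays. These genes lay low on every array and the groups overlapped.

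Mki67, which encodes the Ki-67 antigen of cycling cells, was measured well above the floor, and the groups differed by less than the spread within each of them. It read 6.19, 6.74 and 6.41 in double-positive arrays and 6.07, 6.61 and 6.26 in CD31+ arrays. Replicate 2 was the highest of each group, and the double-positive array was the higher of each same-numbered pair by 0.12, 0.13 and 0.15. The mean difference was 0.13 (95% interval -0.44 to 0.71, adjusted p = 0.833 from limma). When the pairs were fitted as a block the interval was 0.10 to 0.17 and the adjusted p 0.189 (limma), so Mki67 was not called in either fit, and a p that misses the threshold does not show equal levels.

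Top2a, which encodes the topoisomerase that untangles replicated chromosomes, read 5.74, 4.83 and 5.04 in double-positive arrays and 4.08, 3.02 and 4.33 in CD31+ arrays. All double-positive arrays were above all CD31+ arrays. The difference of 1.39 (standard error 0.467) had a p of 0.0364 before and 0.483 after adjustment over all probe sets (limma), so it was not called. Its other probe sets lay at or near the floor, at 2.39 to 2.64. Ccnb2, a cyclin B gene, read 3.08, 2.92 and 3.09 in double-positive arrays and 2.56, 2.63 and 2.56 in CD31+ arrays. The groups did not overlap, and the difference was 0.45 (95% interval 0.29 to 0.60, adjusted p = 0.0801 from limma). Its call turned on the setting, since the adjusted p was 0.0163 without both arrays numbered 2 and 0.0405 with the probe sets of each gene averaged (limma). Ccnb2 has 1 probe set, so averaging left its values unchanged, and that fit covers 18193 genes instead of 45037 probe sets. The values of Ccnb2 lay not far above the floor, which compresses their spread. Bub1b, the checkpoint protein BubR1, read 3.97, 2.53 and 3.32 in double-positive arrays and 2.96, 2.52 and 2.52 in CD31+ arrays. Double-positive replicate 2 lay among the CD31+ arrays. Cenpa, the centromeric variant of histone H3, averaged 3.87 in double-positive and 3.89 in CD31+ arrays with no constant order within pairs (-0.68, 0.22 and 0.42).

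Genes of DNA replication had higher means in double-positive arrays, without a call at 5% FDR. Of 10 measured members, 9 had the higher value in the double-positive array of every same-numbered pair, against 25.2% of all genes and 64.2% of the 4207 genes that reached a log2 of 5 on 3 or more arrays. The mean over the 10 was 5.71, 5.59 and 5.61 in double-positive arrays and 5.20, 5.22 and 4.80 in CD31+ arrays. The groups did not overlap in this mean, and they differed by 0.56. The exception by gene was Tyms, thymidylate synthase, at the floor on all arrays. The median difference of the 10 was 0.60, against 0.00 over all genes. For the 6 that reached a log2 of 5 on 3 or more arrays (Rrm2 among them) it was 0.68, against 0.75 over all 4207 such genes. With each array centred on its bright probe sets the mean over the 10 differed by -0.12. Several of these members rest on probe sets with the suffix _x_at or _s_at, whose probes may also match other sequences. At their brightest probe set without these suffixes Mcm3 differed by 0.05, Mcm5 by 0.01, Rrm2 by 0.03, Mcm2 by -0.10 and Mcm7 by -0.12, whereas Mcm4 (0.77) and Mcm6 (0.93) kept a difference. Where such a probe set lies near the floor, as for Rrm2, its differences are compressed. A small value there does not show that the difference is absent. A further list of DNA replication genes did not share the pattern. Of its 25 measured genes 6 were higher in every pair (24%, against 25.2% of all genes), and their median difference was 0.03. The 4 of them that reached a log2 of 5 on 3 or more arrays had a median of -0.21.

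Rrm2 and Rrm1 encode the subunits of ribonucleotide reductase, which makes the deoxynucleotides for DNA synthesis. Rrm2 read 5.28, 5.12 and 5.03 in double-positive arrays and 4.41, 3.80 and 3.91 in CD31+ arrays. All double-positive arrays were above all CD31+ arrays, by 0.87, 1.32 and 1.12 within pairs. The difference was 1.11 (standard error 0.194, 2.15-fold), with an adjusted p of 0.149 over all probe sets (limma). With a filter that keeps probe sets reaching a log2 of 5 on 3 or more arrays, which Rrm2 passed through the double-positive arrays alone, the adjusted p was 0.0190, and with the replicate number also as a block it was 0.00872 (limma). With that filter and each array centred on its bright probe sets it was 0.301. Since Rrm2 entered the filter in this way, nothing is read from its filtered p-values. This probe set has the suffix _x_at (8 of the 36 members are given at such a probe set, and 4 at an _s_at one), and a second probe set of Rrm2 lay near the floor at 2.54 in double-positive and 2.51 in CD31+ arrays. Rrm1 read 5.41, 5.15 and 5.77 in double-positive arrays and 5.02, 5.15 and 4.97 in CD31+ arrays. The groups only just failed to overlap, since both replicates 2 were equal to the second decimal, and the difference was 0.40 (95% interval -0.09 to 0.88). With the probe sets of Rrm1 averaged the difference was 0.11.

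The Mcm genes encode the subunits of the ring-shaped helicase that opens the DNA at replication origins, and all 6 had a higher mean in double-positive arrays. Of all 18193 genes 9208 had one, and of the 13439 not within 0.1 of the floor on all arrays 8108 did. Mcm3 read 4.62, 4.04 and 4.49 in double-positive arrays and 3.88, 3.53 and 3.87 in CD31+ arrays. These groups did not overlap, and the difference was 0.62 (95% interval 0.08 to 1.16, adjusted p = 0.449 from limma), at an _s_at probe set. Its other probe sets with signal differed by 0.36 and 0.05. Mcm4 read 7.82, 8.46 and 8.22 in double-positive arrays and 7.41, 7.98 and 6.89 in CD31+ arrays, with 1 CD31+ array inside the double-positive range. Mcm6 read 7.66, 7.39 and 7.69 in double-positive arrays and 7.39, 7.24 and 6.40 in CD31+ arrays, and the difference of 0.57 was 0.27 without CD31+ replicate 3. A second probe set of Mcm6 separated the groups, with 4.77, 4.83 and 4.02 in double-positive arrays and 3.70, 3.53 and 3.60 in CD31+ arrays (difference 0.93, adjusted p = 0.342 from limma). Mcm7 read 6.82, 7.12 and 6.12 in double-positive arrays and 5.34, 7.01 and 4.90 in CD31+ arrays. CD31+ replicate 2 lay among the double-positive arrays, and the difference of 0.93 had an adjusted p of 0.659 over all probe sets and 0.0352 with the filter and the block (limma). Its other probe sets differed by 0.47, -0.02 and -0.12. Mcm5 (difference 0.40) and Mcm2 (difference 0.25) were dim and their groups overlapped. Pcna, the sliding clamp of the replication polymerases, read 9.98, 10.20 and 9.71 in double-positive arrays and 9.85, 9.43 and 8.75 in CD31+ arrays. Here too CD31+ replicate 3 was the lowest array, and the difference was 0.62 (95% interval -0.28 to 1.52).

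**Figure D2:**
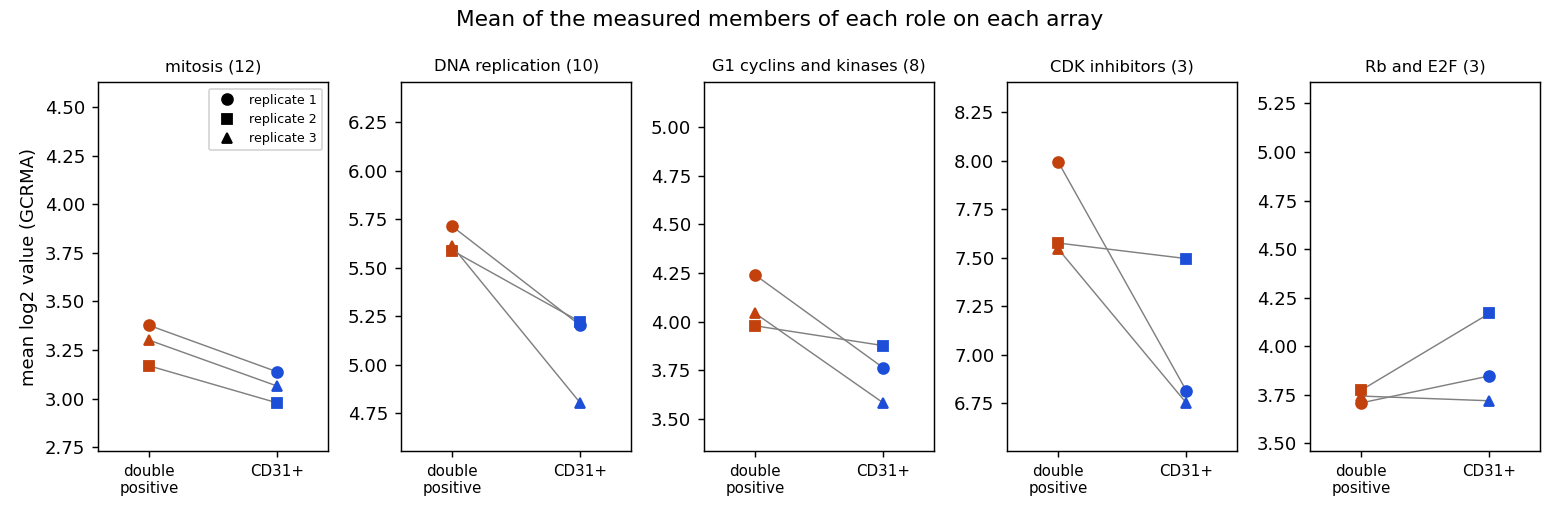
Mean log2 value of the measured members of each role on each array, with double-positive arrays left and CD31+ arrays right, grey lines joining same-numbered replicates, the number of members in brackets and panels of equal span. The mitosis mean is higher in each double-positive array than in its pair by a small step (difference 0.22). The median difference of the 12 mitosis genes is 0.03, and the largest are those of Top2a (1.39), Bub1b (0.61) and Ccnb2 (0.45). The DNA replication mean differs by 0.56 with the lowest point in CD31+ replicate 3 (4.80). The Rb and E2F mean differs by -0.17 through Rb1 alone, since the other 2 of its 3 genes have a higher mean, and in replicate 3 it is higher in the double-positive array (3.74 against 3.72).

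Among the G1 cyclins and kinases only Cdk6 passed at 5% FDR. Cdk6, a partner of the D cyclins, read 4.08, 4.27 and 3.90 in double-positive arrays and 2.39, 2.39 and 2.48 in CD31+ arrays. All CD31+ arrays were at or within 0.1 of the floor, and all double-positive arrays were above it. The difference was 1.66 (standard error 0.106, 95% interval 1.37 to 1.94, 3.16-fold, adjusted p = 0.0259 from limma), and its size depends on where the floor lies. The floor also compresses the spread of the CD31+ arrays, on which the standard error, the interval and the call rest. The difference was 1.69, 1.87 and 1.42 within pairs. The call did not hold with the replicate number as a block (adjusted p = 0.204), which called 0.011% of all genes higher, nor without double-positive replicate 1 (0.125), CD31+ replicate 1 (0.0908), CD31+ replicate 2 (0.0930) or CD31+ replicate 3 (0.0842), and it held without double-positive replicate 2 (0.0442) and replicate 3 (0.0453, all limma). A second probe set of Cdk6 read 3.15, 3.32 and 3.66 in double-positive arrays and 2.86, 3.12 and 2.84 in CD31+ arrays, which do not overlap but differ by only 0.44 (adjusted p = 0.571 from limma). The third lay at the floor on all arrays.

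Cdk4, the close relative of Cdk6, read 4.47, 4.09 and 4.49 in double-positive arrays and 3.42, 4.09 and 3.19 in CD31+ arrays. Replicates 2 of both groups were equal and the other CD31+ arrays were lower (difference 0.78, adjusted p = 0.548 from limma). A second probe set differed by 0.13. Ccnd1, the cyclin D gene that growth factors induce, read 9.86, 8.001 and 9.44 in double-positive arrays and 8.13, 8.10 and 8.28 in CD31+ arrays. Double-positive replicates 1 and 3 were above every CD31+ array, and double-positive replicate 2 was below them all. The difference of 0.93 (95% interval -0.52 to 2.38) had an adjusted p of 0.659 over all probe sets and 0.0484 with the filter and the block (limma). A second probe set of Ccnd1 showed 6.21, 5.38 and 5.82 in double-positive arrays and 5.60, 5.38 and 5.60 in CD31+ arrays, again with replicates 2 alike. Ccnd2 averaged 3.85 in double-positive and 3.69 in CD31+ arrays, while its other probe sets differed by -0.33 and -0.28, and Ccnd3 lay near the floor on all arrays but CD31+ replicate 1.

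Ccne1, which encodes a cyclin E, was the member whose double-positive arrays all lay below the CD31+ arrays, at 3.72, 3.60 and 3.11 against 4.03, 4.13 and 4.25. The difference was -0.66 (95% interval -1.16 to -0.15), with a p of 0.0218 before and 0.367 after adjustment (limma). Its other probe set with signal differed by -0.05, and the brighter one has the suffix _x_at. Ccne2, the second cyclin E gene, averaged 2.82 in double-positive and 2.86 in CD31+ arrays, and Cdk2, the partner of cyclin E, averaged 2.63 in double-positive and 2.55 in CD31+ arrays. Both lay low and overlapped, and with its probe sets averaged Cdk2 differed by 0.0004.

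All 3 CDK inhibitors passed the filter on dim probe sets and had a higher mean in double-positive arrays at their brightest probe set, with no call at 5% FDR. Their median difference was 0.76, against 0.75 over all 4207 genes that pass the filter. In every same-numbered pair 1 of the 3 was higher (33.3%, against 64.2% of these genes). Cdkn1a, an inhibitor induced by p53, read 10.54, 10.64 and 10.77 in double-positive arrays and 9.80, 10.95 and 9.70 in CD31+ arrays. The double-positive arrays were close together, and CD31+ replicate 2 was the highest of all 6. Its difference was 0.50 (95% interval -0.55 to 1.55). With its 2 probe sets averaged the difference was 0.16, so the other probe set went the other way. Cdkn1b, an inhibitor of cyclin E with Cdk2 that is abundant in resting cells, read 6.06, 6.57 and 5.86 in double-positive arrays and 5.30, 5.86 and 5.04 in CD31+ arrays. The pairs gave 0.76, 0.71 and 0.82, the most even of the 3 inhibitors, and replicate 2 was the highest in each group. The difference of 0.76 (standard error 0.309) had an adjusted p of 0.622 over all probe sets, 0.0980 after filtering and 0.0412 when the block was added to the filter (limma). Averaging the 2 probe sets of Cdkn1b gave 0.31, so here too the other probe set went the other way. Cdkn2c, an inhibitor of Cdk4 and Cdk6, read 7.37, 5.52 and 6.00 in double-positive arrays and 5.34, 5.67 and 5.52 in CD31+ arrays. Its difference of 0.78 came largely from double-positive replicate 1, without which it was 0.25.

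Rb1, which encodes the retinoblastoma protein, read 5.95, 5.92 and 6.08 in double-positive arrays and 6.41, 7.49 and 6.07 in CD31+ arrays. The difference of -0.68 (95% interval -1.79 to 0.43, adjusted p = 0.659 from limma) was set mainly by CD31+ replicate 2, without which it was -0.26. With the probe sets of Rb1 averaged it was -0.32. With the filter and each array centred on its bright probe sets the difference was -1.35 (adjusted p = 0.0137 from limma). The related pocket protein gene Rbl2 averaged 2.61 in double-positive and 2.59 in CD31+ arrays. E2f1, an activating E2F factor, averaged 2.63 in double-positive and 2.49 in CD31+ arrays, and the groups of both overlapped.

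**Figure D3:**
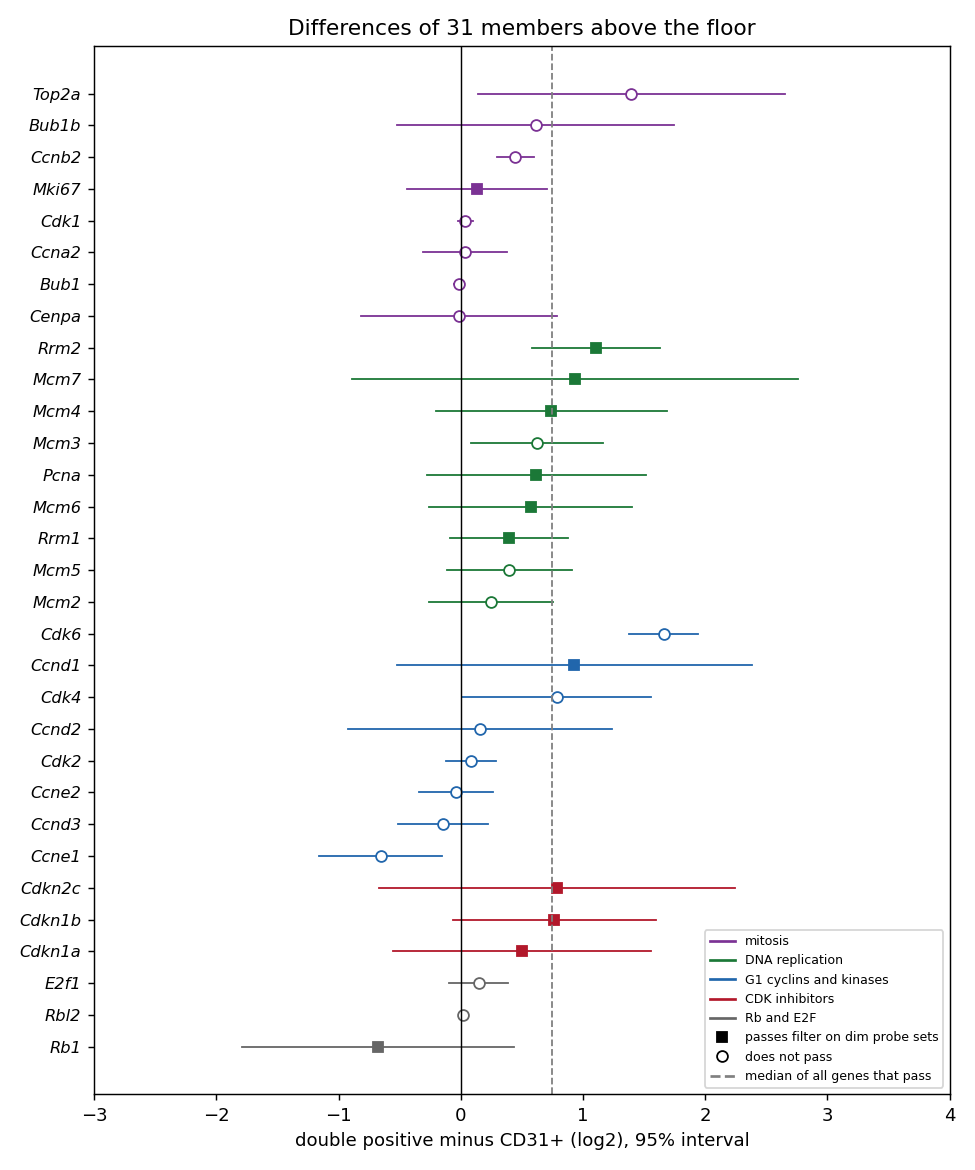
Difference in log2 value, double-positive minus CD31+, with its 95% interval from limma for the 31 members not at the floor on all arrays, coloured by role, with squares for those that pass the filter on dim probe sets and the dashed line at the median of all genes that pass it (0.75). The intervals of most members cross 0, Cdk6 is clear of it at 1.66, and 5 of the 12 squares lie right of the dashed line.

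The filter on dim probe sets kept 12 of 36 members (33.3%, against 23.1% of all genes), and a gene can pass it through the group where it is high. At 5% FDR with the filter 1 of them was higher (33.2% of all genes) and 0 were lower (4.11%), and since that member was Rrm2, which entered through the double-positive arrays alone, nothing is read from this count. With the filter and the replicate block 4 were higher (Rrm2, Mcm7, Ccnd1 and Cdkn1b, 46.4% of all genes) and 0 were lower (4.99%). Rrm2 is again among them, so nothing is read from this count either. The median difference of the 12 was 0.68, against 0.75 over the 4207 genes that pass. The groups did not overlap for 2 of the 12 above (Rrm1 and Rrm2, against 47.7%) and 0 below (against 5.99%). Of the 12, 8 were higher in all 3 pairs (66.7%, against 64.2%), Rrm2 among them. Since Rrm2 entered through the double-positive arrays alone, nothing is read from its part in this median and these counts. CD31+ replicate 3 was the lowest array for 7 of the 12 (58.3%), against 58.2% of the 4207 genes. When each array was centred on its bright probe sets, every difference fell by 0.68, which left the role means of DNA replication at -0.12 and of CDK inhibitors at 0.01. With centred arrays 2 members were called higher (Top2a and Cdk6, 7.2% of all genes) and 17 lower (67.2%), among them Mki67 (adjusted p = 0.0443 from limma). With the filter added 0 were higher (12.6%) and 1 was lower (9.63%, Rb1), and Mki67 was not called (adjusted p = 0.238 from limma). With the probe sets of each gene averaged, 2 members were higher (2.24%) and 0 were lower (0.456%). Whether the brightness of the arrays takes part in the differences was not tested.

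**Figure D4:**
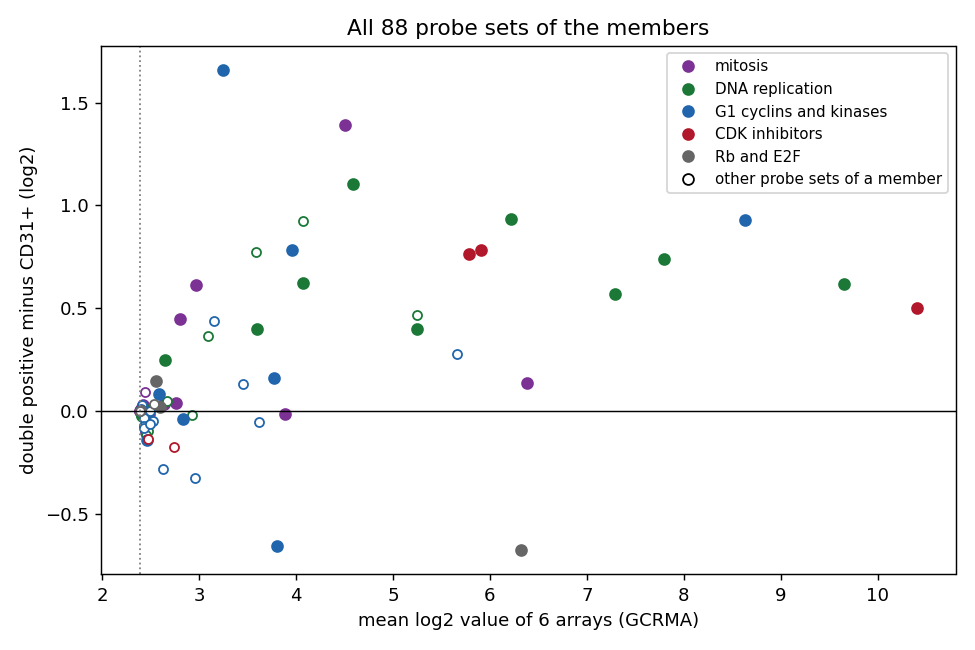
Difference in log2 value, double-positive minus CD31+, against the mean log2 value of the 6 arrays for all 88 probe sets of the members, with filled points for the brightest probe set of each gene and the floor of 2.39 dotted. Probe sets at the floor sit at a difference near 0, those with means over 5 lie between 0 and 1 except Rb1 at -0.68, and Cdk6 at 1.66 has a mean below 4.

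A further list of 100 cell cycle genes, of which 96 were measured, was measured in the same way. At 5% FDR over all probe sets 0 were higher and 0 were lower (limma), and before adjustment 7 were higher (12.5% of all genes) and 4 lower (2.12%) at p under 0.05. The median difference was 0.03. With the filter 22 remained to be tested, and 5 were higher (Myc, Cks2, Stmn1, Incenp and Smc4, against 33.2% of all genes) and 0 lower (4.11%). Myc, the growth-promoting transcription factor, read 8.40, 8.47 and 7.12 in double-positive arrays and 6.03, 5.20 and 4.84 in CD31+ arrays. The groups were well apart, with a difference of 2.64 (adjusted p = 0.198 over all probe sets and 0.00301 with the filter, limma). Stmn1, which encodes the microtubule regulator stathmin, read 9.34, 9.42 and 9.30 in double-positive arrays and 7.89, 8.28 and 7.35 in CD31+ arrays (difference 1.51 at an _s_at probe set, adjusted p = 0.00742 with the filter, limma), whereas its other probe set lay near the floor and differed by 0.03. Cks2, a small CDK-binding subunit, read 8.08, 8.09 and 7.73 in double-positive arrays and 7.03, 6.99 and 4.96 in CD31+ arrays (difference 1.64, adjusted p = 0.0397 with the filter, limma). Smc4, a condensin subunit, differed by 1.20. Incenp, a partner of Aurora B, differed by 1.31 at an _x_at probe set and by -0.07 at another. With the filter and centred arrays the calls higher in double-positive arrays were Myc and Stmn1, and 5 genes of the list were lower.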

How the data were processed

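RNA of 3 double-positive and 3 CD31+ samples was analysed. The authors amplified 20 ng of RNA in 2 rounds, hybridized it and normalized the arrays with GCRMA, and what they deposited is log2 RNA abundance per probe set and array; versions were not given in the sources used here. GCRMA sets dim probe sets to a common floor, so that their differences are compressed. Of 45037 probe sets, 34945 map to 1 gene of the platform table. All 45037 were fitted in R 4.3.3 by lmFit and eBayes of limma 3.58.1, without filter or block, and with Benjamini-Hochberg adjustment, and an interval is that of the fit. eBayes estimated 0.356 prior degrees of freedom, and 4.92 with the filter (log2 reaching 5 on 3 or more arrays). The design text calls the samples paired, and same-numbered arrays deviated together (r = 0.341, 0.475 and 0.418 over 5764 probe sets, others -0.405 to 0.0566), so the replicate numbers were taken to pair the arrays.

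Named genes were every member, and of the other cell cycle genes those called in the fit or with the filter, at most 6. Alternatives were the replicate block, the filter, both together, arrays centred on bright probe sets, eBayes with trend and robust, array weights, probe sets averaged per gene, any own probe set, and each array left out. Leaving out both arrays numbered 2 and leaving out _x_at and _s_at probe sets were chosen after seeing the data. The members and lists were chosen with earlier results of these data known. Promoter windows are from RefSeq. Plots were made in Python 3.11.15 with matplotlib 3.10.9.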

Additional observations from a re-analysis of the deposited data

How the results depend on the processing

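With the replicate number as a block, which pairs the arrays, 0 members were higher at 5% FDR instead of 1 (9 at an unadjusted p under 0.05, against 12.6% of all genes). The block alone took the call from Cdk6 and from all 6 lymphatic and 5 blood vessel markers called without it, gave 2 higher and 0 lower calls over all genes, against 160 and 32 without it, and changed no other call of a member. The number of members called higher was 4 with the filter and block (Rrm2 among them), 2 with centred arrays, 0 with filter and centring, 2 with averaged probe sets and 0 to 1 with an array left out. Members called lower were 17 with centred arrays (67.2% of all genes) and 1 with filter and centring (9.63%). Of the further cell cycle genes, those higher were 5 with the filter, 11 with filter and block, 6 with centred arrays, 2 with filter and centring and 1 with averaged probe sets, and those lower were 1 with filter and block, 60 of 96 with centred arrays and 5 with filter and centring. By its construction, centring lowered the values of double-positive arrays and raised those of CD31+ arrays, at the floor too. The mean of the 11 hematopoietic markers went from 2.59 to 2.25 in double-positive arrays and from 2.70 to 3.04 in CD31+ arrays. Centring gave role means of -0.46 (mitosis), -0.12 (DNA replication), -0.33 (G1 cyclins and kinases), 0.0058 (CDK inhibitors) and -0.85 (Rb and E2F). As deposited and over members that pass the filter, the G1 mean was 0.93 and the Rb and E2F mean -0.68, each resting on 1 member (Ccnd1 and Rb1). Centring turned the sign of Mki67 (-0.54), Cdk1 (-0.64), Ccna2 (-0.65), Ccnb2 (-0.23), Bub1b (-0.065), Mcm2 (-0.43), Mcm3 (-0.054), Mcm5 (-0.28), Mcm6 (-0.11), Pcna (-0.058), Rrm1 (-0.28), Ccnd2 (-0.52), Cdk2 (-0.60), Cdkn1a (-0.18), E2f1 (-0.53) and Rbl2 (-0.66). Averaged probe sets turned Ccna2 (-0.0061) and Ccnd2 (-0.059). Without _x_at and _s_at probe sets the signs of Bub1b (-0.10), Mcm2 (-0.10), Mcm7 (-0.12), Ccnd2 (-0.33) and Incenp (-0.072) turned and Rrm2 gave 0.03, and without both arrays numbered 2 that of Ccne2 did (0.10). With an array left out, differences ran from -0.010 to 0.28 for Mki67, -0.038 to 0.17 for Ccna2, -0.20 to 0.27 for Cenpa, -0.19 to 0.45 for Ccnd2 and -0.13 to 0.040 for Ccne2. The sign turns with centring follow from its construction, since it lowers every difference by the same amount. Those with averaged probe sets or without _x_at and _s_at ones come from reading other probe sets of the gene. Why the probe sets of a gene differ was not tested, nor was the cause of the other changes.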
